A study of Mus musculus with 8 samples.

Results

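Transcripts of 9 genes that mark regulatory T cells (Tregs) or encode T cell costimulatory receptors were followed in libraries of cells labelled as dendritic cells (DCs) from E0771 tumours. These genes were Foxp3, Ikzf2, Ctla4, Icos, Il2ra, Cd27, Tnfrsf4, Tnfrsf18 and Tnfrsf9, taken by symbol from the raw count table, and all 9 were present among its 10825 listed genes. They were chosen by their measured CPM in the PBS and DRQ libraries and by how those levels co-varied over the 8 libraries, so these values are descriptions. Calls from the fits over all genes are printed once for them, beside the share of all genes called, and nothing is read from them. E0771 is a mouse mammary carcinoma cell line. Wild-type (WT) mice carrying these tumours received PBS or DRQ, described by the labels as inhibiting CD74, from day 10, and cells were sorted 3 weeks after injection. There were 4 PBS and 4 DRQ samples, with no age, dose or gating markers given, and nothing in the labels says that they were separate mice. A p-value therefore measures only the spread among these libraries, and that spread may be technical.

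Tregs restrain other lymphocytes and are common in tumours. FOXP3 is the transcription factor that sets their program, and IKZF2 (Helios), an Ikaros family zinc finger protein, is present in many of them. Their surface carries the inhibitory receptor CTLA-4, its relative ICOS and the high-affinity interleukin-2 receptor chain IL2RA (CD25). OX40 (Tnfrsf4), GITR (Tnfrsf18), 4-1BB (Tnfrsf9) and CD27 belong to the TNF-receptor superfamily, bind ligands on antigen-presenting cells and signal through TRAF adaptors to NF-kB. None of the 9 is restricted to Tregs. Activated T cells make most of them, natural killer (NK) cells can carry Cd27, Tnfrsf18 and Tnfrsf9, and mature DCs can carry Il2ra and Tnfrsf9.

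The labelled cell type was checked against marker genes. Library totals ran from 361792 to 543892 counts, and the limit set by a count of 0 (3 counts) lay between 5.73 and 9.01 CPM, where CPM is counts scaled to a common library size. Of 11 conventional DC markers 9 were listed, among them Cd74, Irf8 and Flt3, while Zbtb46 had 0 counts in 1 library and Xcr1 and Clec9a were not among the listed genes. T cell markers were present as well. Of 9 T cell markers 8 were listed, all 8 counted in every library, and their summed level ran from 480 to 915 CPM in the PBS libraries and from 808 to 1042 CPM in DRQ. All 9 NK cell markers were counted in every library, summing to between 8373 and 11538 CPM in the PBS libraries and between 6172 and 11114 CPM in DRQ. Of 4 B cell markers only Cd79b was listed, and it had 0 counts in 2 libraries. The libraries thus held transcripts of DC, T cell and NK cell marker genes, and in such bulk samples fewer cells of a type and less RNA per cell cannot be told apart.

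Foxp3 (ENSMUSG00000039521, chromosome X) was counted in all 8 libraries. Its level, in CPM scaled by TMM factors (edgeR's correction for library composition), was 61.1, 56.2, 63.1 and 54.2 CPM in PBS replicates 1 to 4, and 97.9, 114, 65.3 and 83.1 CPM in DRQ replicates 1 to 4. Every DRQ library exceeded every PBS library, but the gap was narrow: DRQ replicate 3 held 27 Foxp3 counts and stood just above PBS replicate 3 with 21. The means were 58.6 ± 4.15 CPM in the PBS libraries and 90.1 ± 20.7 CPM in DRQ (SD, n = 4), a log2 fold change of 0.62 ± 0.28 (SE). Ccdc22, on the opposite strand, covers the 3′ end of Foxp3 in GENCODE vM21, strand use in counting being not given in the sources used here. Reads of the pair therefore cannot be told apart. Ccdc22 averaged 20.3 ± 5.17 CPM in the PBS libraries and 26.1 ± 10.6 CPM in DRQ (SD, n = 4).

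Ikzf2 (ENSMUSG00000025997, chromosome 1) was sparse, with 3 to 10 counts per PBS library and 9 to 31 per DRQ library. Its level was 7.64, 8.42, 30.0 and 12.9 CPM in PBS replicates 1 to 4 and 28.6, 34.6, 21.8 and 59.9 CPM in DRQ replicates 1 to 4. The groups overlapped because PBS replicate 3 stood above DRQ replicates 1 and 3. The means were 14.8 ± 10.5 and 36.2 ± 16.6 CPM (SD, n = 4) and the log2 fold change was 1.35 ± 0.50 (SE), the furthest from 0 of the 9. It stood between 0.98 and 1.91 over the alternative settings and libraries left out.

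**Figure D1:**
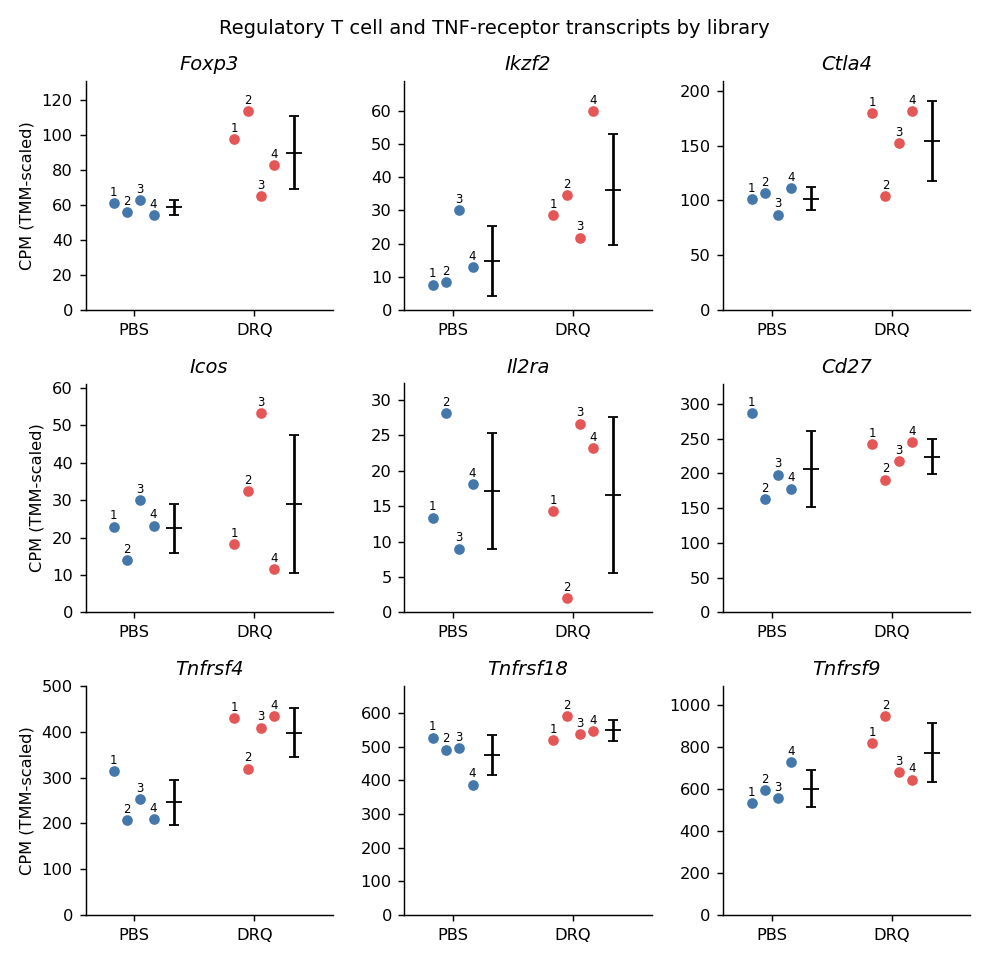
Level of each of the 9 transcripts (TMM-scaled CPM, y axis) in the 4 PBS and 4 DRQ libraries, numbered by replicate, with bars showing the mean and SD of each group. Foxp3 and Tnfrsf4 are the transcripts whose DRQ libraries all lie above the PBS libraries, with DRQ replicate 3 (65.3 CPM) and DRQ replicate 2 (319 CPM) nearest to PBS.

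Ctla4 (ENSMUSG00000026011, chromosome 1), which encodes a receptor that competes with CD28 for CD80 and CD86, had levels of 101, 107, 87.1 and 111 CPM in PBS replicates 1 to 4. In DRQ replicates 1 to 4 they were 179, 104, 152 and 182 CPM. Of the DRQ libraries 3 were above every PBS library, and DRQ replicate 2 lay inside the PBS range. The means were 102 ± 10.4 CPM in the PBS libraries and 154 ± 36.3 CPM in DRQ (SD, n = 4), with a log2 fold change of 0.60 ± 0.23 (SE).

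Icos (ENSMUSG00000026009) lies close to Ctla4 on chromosome 1, with 0 protein-coding genes between them in RefSeq. Icos encodes a costimulatory receptor whose ligand is ICOSL. It had 22.9, 14.0, 30.0 and 23.2 CPM in PBS replicates 1 to 4 and 18.4, 32.5, 53.2 and 11.6 CPM in DRQ replicates 1 to 4. The DRQ libraries spanned the whole PBS range, and the log2 fold change of 0.33 ± 0.48 (SE) became -0.11 without DRQ replicate 3. DRQ replicate 4, the highest library for Ctla4, was the lowest for Icos.

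Il2ra (ENSMUSG00000026770, chromosome 2) was the sparsest of the 9, with 1 to 12 counts per library, and was the member below the low-count filter. Its level was 13.4, 28.1, 9.01 and 18.1 CPM in PBS replicates 1 to 4 and 14.3, 2.03, 26.6 and 23.2 CPM in DRQ replicates 1 to 4. The groups overlapped fully and the log2 fold change was -0.06 ± 0.60 (SE), so no difference in either direction was detectable at this depth. DRQ replicate 2, with 1 Il2ra count, had the most Foxp3.

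Tnfrsf4 (ENSMUSG00000029075, chromosome 4), which encodes OX40, a receptor that prolongs T cell survival, stood at 313, 208, 252 and 209 CPM in PBS replicates 1 to 4. In DRQ replicates 1 to 4 it stood at 430, 319, 409 and 435 CPM. The groups did not overlap, with PBS replicate 1 and DRQ replicate 2 nearest each other. The means were 246 ± 49.6 and 398 ± 53.9 CPM (SD, n = 4), a log2 fold change of 0.69 ± 0.17 (SE) that stayed between 0.61 and 0.84 over the alternatives. In CPM of all counts, without TMM factors, these 2 libraries overlapped. Sdf4, which precedes Tnfrsf4 on the chromosome and overlaps it in RefSeq but not in GENCODE vM21, averaged 474 ± 78.0 CPM in the PBS libraries and 654 ± 31.8 CPM in DRQ (SD, n = 4).

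Tnfrsf18 (ENSMUSG00000041954), which encodes GITR, follows Tnfrsf4 on chromosome 4 with 0 protein-coding genes between them in RefSeq. Its level was 527, 491, 496 and 387 CPM in PBS replicates 1 to 4 and 520, 592, 537 and 547 CPM in DRQ replicates 1 to 4. PBS replicate 1 lay above DRQ replicate 1, so the groups overlapped, although they did not in the deposited normalized table. The log2 fold change was 0.21 ± 0.15 (SE), and 0.12 without PBS replicate 4.

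Tnfrsf9 (ENSMUSG00000028965, chromosome 4), which encodes 4-1BB, a receptor induced on activated lymphocytes, stood at 533, 595, 556 and 728 CPM in PBS replicates 1 to 4. In DRQ replicates 1 to 4 it stood at 820, 950, 680 and 645 CPM. DRQ replicates 3 and 4 lay below PBS replicate 4, and the log2 fold change was 0.36 ± 0.15 (SE). Camta1, on the opposite strand, covers the 3′ end of Tnfrsf9 in GENCODE vM21, though not in RefSeq, and averaged 17.1 ± 8.07 CPM in the PBS libraries and 10.3 ± 2.38 CPM in DRQ (SD, n = 4).

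Cd27 (ENSMUSG00000030336, chromosome 6), the receptor of CD70, stood at 287, 163, 198 and 178 CPM in PBS replicates 1 to 4 and at 243, 191, 218 and 245 CPM in DRQ replicates 1 to 4. PBS replicate 1 was the highest of the 8 libraries, and the DRQ libraries lay inside the PBS range. The log2 fold change was 0.11 ± 0.19 (SE) and ran from 0.01 without PBS replicate 2 to 0.32 without PBS replicate 1. Vamp1, on the opposite strand, covers its 3′ end in GENCODE vM21, though not in RefSeq, and averaged 13.0 ± 10.5 CPM in the PBS libraries and 7.43 ± 6.38 CPM in DRQ (SD, n = 4).

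As a group, 8 of the 9 had log2 fold changes above 0, against 49.1% of all 10825 listed genes and 48.4% of the 6156 tested, and their median was 0.36, against -0.01 for all listed genes. The direction was not stable for the 2 sparse receptors. Il2ra moved above 0 without PBS replicate 2, DRQ replicate 1 or DRQ replicate 2, and Icos moved below 0 without DRQ replicate 3, while the other 7 stayed above 0 in each of their alternatives. Of the 8 that passed the low-count filter 0 passed the quasi-likelihood test of edgeR (Benjamini-Hochberg adjusted p under 0.05 over all genes), where 2 of 6156 genes (0.0325%) were called higher and 0 (0%) lower. DESeq2 gave an adjusted p to 5 of the 9 and called 1, Tnfrsf4, where it called 17 of 2011 genes (0.845%) over the whole table. Groups stood fully apart for 2 of the 9, Foxp3 and Tnfrsf4, both higher in DRQ, against 1.94% of all listed genes higher and 1.79% lower (2.14% and 2.18% of tested genes). This contrast helped to choose the 9 genes. The number of members fully apart was 1, Foxp3, in CPM of all counts and 3, with Tnfrsf18, in the deposited normalized table.

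**Figure D2:**
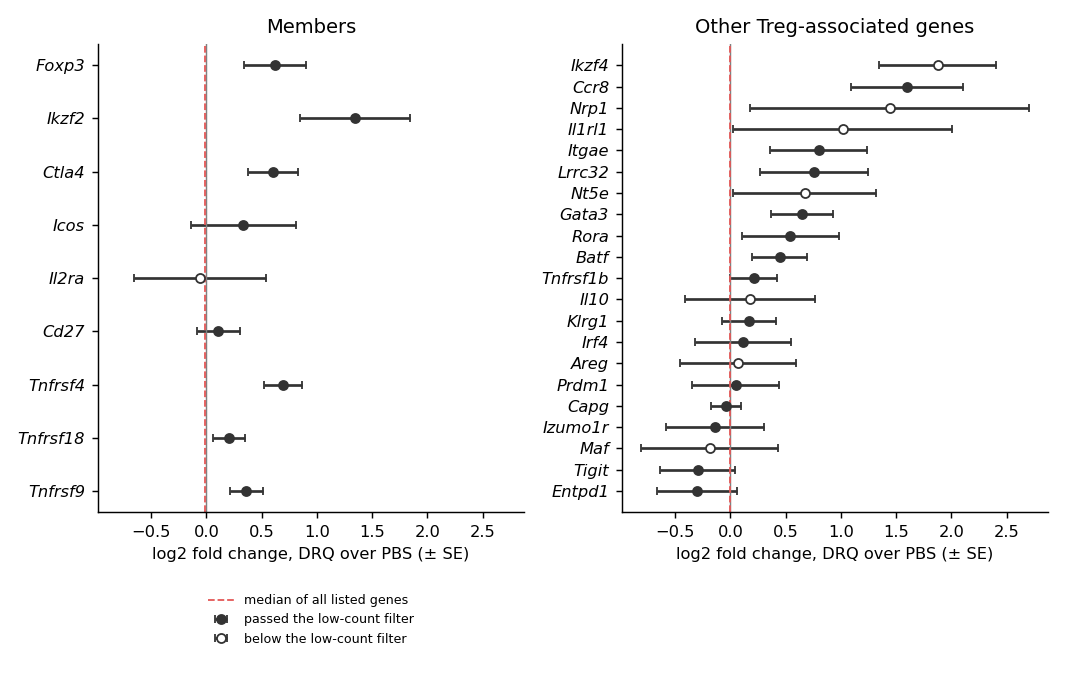
Log2 fold change of DRQ over PBS (x axis, ± SE from edgeR without a low-count filter) for the 9 members and for 21 other Treg-associated genes, with open points for genes below the low-count filter and a dashed line at the median of all listed genes. Ikzf2 (1.35) lies furthest to the right among the members and Ikzf4 (1.87) and Ccr8 (1.60) among the other genes, while Il2ra (-0.06) lies near the median of all genes.

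Marker sums of other cell types were taken in the same libraries. The T cell marker sum was 634 ± 198 CPM in the PBS libraries and 907 ± 112 CPM in DRQ (SD, n = 4), and PBS replicate 1, at 915 CPM, stood among the DRQ libraries. Cd4 alone averaged 50.7 ± 31.4 and 99.9 ± 28.0 CPM, and Cd8a 64.3 ± 20.2 and 41.1 ± 16.9 CPM (SD, n = 4), both with overlapping groups. The other CD8 chain gene, Cd8b1, was alike in both, at 46.4 ± 19.0 and 47.3 ± 14.6 CPM (SD, n = 4). The sum of 10 listed mature DC markers was 654 ± 193 CPM in the PBS libraries and 1206 ± 237 CPM in DRQ, and that of 9 conventional DC markers 9919 ± 2331 and 14510 ± 1299 CPM (SD, n = 4), both without overlap, DRQ being higher. Cd74 and the MHC class II genes H2-Aa, H2-Ab1 and H2-Eb1 carried most of the conventional DC sum. Only for these did the groups stand apart, Cd74 averaging 2524 ± 779 and 3905 ± 565 CPM (SD, n = 4). Flt3, Irf8, Batf3 and Zbtb46 overlapped between groups. Itgax overlapped too and was lower on average in DRQ, at 208 ± 39.8 and 186 ± 30.5 CPM (SD, n = 4). The NK cell sum was 9780 ± 1357 and 8921 ± 2092 CPM (SD, n = 4), with overlapping groups. Its largest part was Gzma, a granule gene, at 5602 ± 980 and 5043 ± 1761 CPM (SD, n = 4). Of 4 tumour epithelium markers 3 were listed, with Epcam and Krt18 at 0 in some libraries, and their sum was 187 ± 58.4 and 103 ± 54.1 CPM (SD, n = 4), with overlapping groups. Krt8 alone stood at 155 ± 41.8 and 73.6 ± 38.3 CPM (SD, n = 4), every DRQ library being below every PBS library. Such a separation held for 1.79% of all listed genes, and the gap was narrow, from 109 CPM in DRQ to 111 CPM in PBS. Krt18, at 24.9 ± 17.5 and 24.7 ± 27.2 CPM, and Epcam, at 6.56 ± 6.87 and 4.40 ± 6.38 CPM (SD, n = 4), had overlapping groups. The sum of 5 listed macrophage markers ran from 92.9 to 292 CPM in PBS and from 146 to 167 CPM in DRQ replicates 1 to 3, and was 582 CPM in DRQ replicate 4. That library also had the highest T cell marker sum of the 8 libraries, at 1042 CPM. It was the highest DRQ library for Ikzf2, Ctla4, Tnfrsf4 and Cd27, whose log2 fold changes without it were 0.98, 0.51, 0.65 and 0.06. The part of these cell types in the member transcripts was not tested.

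**Figure D3:**
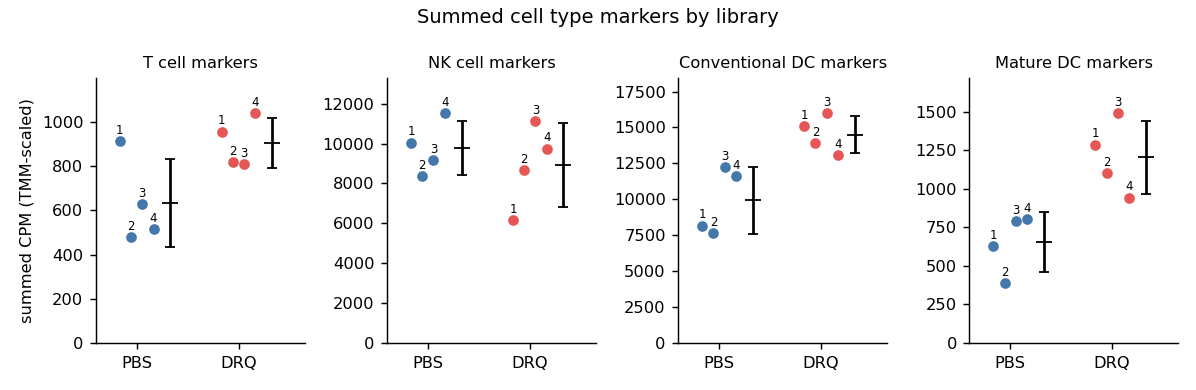
Summed level of listed T cell, NK cell, conventional DC and mature DC markers (TMM-scaled CPM, y axis) in each library, numbered by replicate, with mean and SD per group. The T cell sum of PBS replicate 1 (915 CPM) lies within the DRQ range of 808 to 1042 CPM, and the NK cell sums of the groups overlap.

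The 6 best-counted members did not vary as a block, while Il2ra, Ikzf2 and Icos were too sparse to be compared. After subtraction of group means, log2 CPM was compared across the 8 libraries for the 6 members with a mean of at least 20 counts per library, giving 15 pairs, and the values are descriptive and carry no p because co-variation was part of the choice of genes. The median Pearson r over the pairs was 0.01, with 8 of 15 above 0, and 6 of 15 without the 2 libraries farthest from the median of the first gene of each pair. Tnfrsf4 and Cd27 went together most closely, with r = 0.95, Spearman rho = 0.98 and r = 0.95 without the 2 libraries farthest from the median of Tnfrsf4. Tnfrsf4 and Tnfrsf9 ran in opposite directions, with r = -0.74, rho = -0.67 and r = -0.61 without those 2 libraries. Foxp3 and Ctla4, both hallmarks of Tregs, stood at r = -0.53, rho = -0.43 and r = -0.33 without the 2 libraries farthest from the median of Foxp3. Their variance among PBS libraries was only 0.11 and 0.37 times that of counting noise. Among DRQ libraries it was 2.15 and 4.21 times. The part of counting noise in these r values was not tested. DRQ replicate 2 shows the split, being the highest DRQ library for Foxp3, Tnfrsf18 and Tnfrsf9 and the lowest for Ctla4, Tnfrsf4, Cd27 and Il2ra.

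Tnfrsf4 and Cd27 were also the members closest to the T cell markers. Against the summed T cell markers Cd27 had r = 0.97 and rho = 0.93, and Tnfrsf4 r = 0.89 and rho = 0.86. Without the 2 libraries farthest from the median of the marker sum, PBS replicates 1 and 2, r was 0.87 for Cd27 and 0.76 for Tnfrsf4. The values were 0.45 for Tnfrsf18, 0.20 for Foxp3, 0.15 for Ctla4 and -0.52 for Tnfrsf9. Against the NK cell marker sum the 6 members had r from -0.60 to 0.00, against conventional DC markers from -0.53 to 0.22 and against mature DC markers from -0.41 to 0.19. The NK cell sum is weighted to Gzma, and the conventional DC sum to Cd74 and MHC class II genes. In all, 24 such relations between members and marker sums were computed. Several changed with 2 libraries left out, Foxp3 against mature DC markers going from -0.16 to -0.72. Both measures of a point come from the same library, depth and scaling factor.

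**Figure D4:**
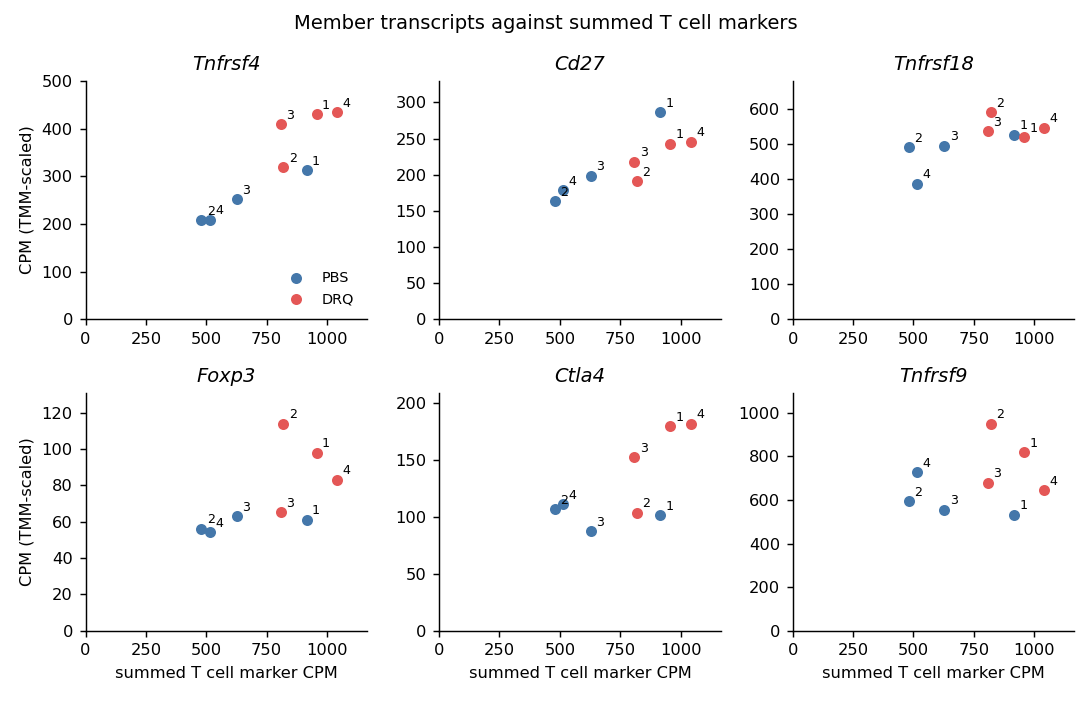
Level of 6 members (TMM-scaled CPM, y axis) against the summed level of 8 T cell markers (TMM-scaled CPM, x axis), 1 point per library, numbered by replicate and coloured by treatment. Tnfrsf4 and Cd27 are higher where the marker sum is higher (r = 0.89 and 0.97 after subtraction of group means), and PBS replicate 1 has a marker sum of 915 CPM, within the DRQ range, with a Foxp3 level of 61.1 CPM.

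Genes with the most similar profile, out of 3882 with a mean of at least 20 counts, were found by the same Pearson r on deviations from group means over 8 libraries. For Tnfrsf4 they were Cnbp (r = 0.99), the T cell surface gene Cd5 (0.96) and Scimp (0.96), and for Cd27 they were Cd5 (0.97), Cnbp (0.97) and Rheb (0.95). The 2 members thus shared Cd5 and Cnbp among their 3 nearest genes. For Foxp3 they were Suz12 (0.97), Mllt6 (0.97) and Sf3b5 (0.97), for Ctla4 Rpgrip1 (0.95), Elf1 (0.93) and Ruvbl2 (0.93), and for Tnfrsf9 Hspa14 (0.98), Mcm2 (0.95) and Rnf167 (0.95). These are the 3 highest of 3882 values for each of these 5 members, and of the T cell markers only Cd5 is among the 15 places. Without the 2 libraries farthest from the member's median, r fell to 0.70 for Rpgrip1, 0.76 for Elf1 and 0.72 for Ruvbl2 with Ctla4. It fell to 0.79 for Rheb with Cd27, and the others stood between 0.88 and 0.98.

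Set against T cell marker counts of the same library, Foxp3 no longer separated the treatments. Foxp3 had 6.68, 11.7, 10.0 and 10.6 counts per 100 T cell marker counts in PBS replicates 1 to 4. The DRQ replicates 1 to 4 had 10.2, 13.9, 8.08 and 7.98. The groups overlapped, with means of 9.74 ± 2.16 and 10.0 ± 2.77 (SD, n = 4). Ctla4 had 17.2 ± 5.58 and 16.9 ± 2.92, and Tnfrsf4 39.6 ± 3.82 and 44.1 ± 5.0 counts per 100 T cell marker counts (SD, n = 4), again with overlapping groups. Ikzf2 had 2.47 ± 1.69 and 3.91 ± 1.39 (SD, n = 4), also overlapping. This ratio does not depend on the scaling factor, but it takes Tregs and other T cells together.

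Other members were lower on this scale in DRQ, with overlapping groups. The T cell marker sum itself, in CPM, had a DRQ over PBS ratio of 1.43. A gene with a similar CPM in both groups is therefore lower in DRQ on this scale. Tnfrsf18 had 78.6 ± 18.4 and 61.4 ± 9.50, Tnfrsf9 103 ± 37.2 and 86.9 ± 22.1, Il2ra 3.07 ± 2.10 and 1.82 ± 1.28, and Icos 3.68 ± 1.14 and 3.40 ± 2.44 counts per 100 T cell marker counts in PBS and DRQ (SD, n = 4). The ratios of the means were 0.78 for Tnfrsf18, 0.84 for Tnfrsf9, 0.59 for Il2ra and 0.92 for Icos, against 0.75 for Cd27. Only for Cd27, whose ratio of mean CPM was 1.09, did the groups not overlap. The share of all genes with groups apart on this scale was not computed, so nothing is read from this separation. NK cell markers are not in the denominator, although NK cells can carry Cd27. Cd27 had 31.3, 33.9, 31.6 and 34.7 counts per 100 T cell marker counts in PBS replicates 1 to 4. The DRQ replicates 1 to 4 had 25.4, 23.3, 26.9 and 23.6. All 4 DRQ libraries lay below all 4 PBS libraries, at 24.8 ± 1.70 against 32.9 ± 1.68 (SD, n = 4), although the Cd27 level in CPM overlapped between groups. No test was made, because the same counts chose the genes.

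**Figure D5:**
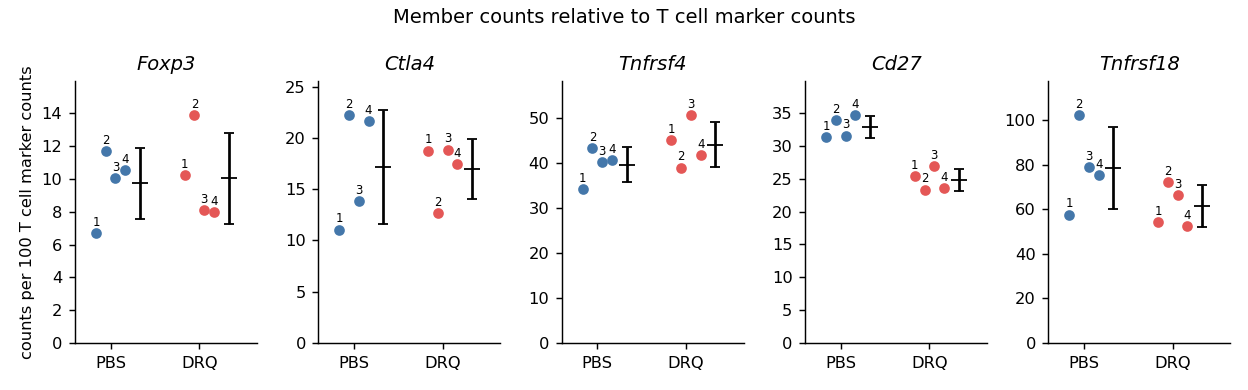
Counts of 5 members per 100 summed T cell marker counts of the same library (y axis), numbered by replicate, with mean and SD per group. Foxp3, Ctla4, Tnfrsf4 and Tnfrsf18 overlap between treatments, while the Cd27 values of 23.3 to 26.9 in DRQ lie below those of 31.3 to 34.7 in PBS. How many of all genes stand apart on this scale was not computed.

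Promoter windows are shown for Tnfrsf4 and Cd27, the pair that varied together, for Tnfrsf9, which ran against Tnfrsf4, and for Foxp3, the last 2 by the window that held a match. They come from RefSeq on GRCm38.p6, run from 250 bases before to 50 after a gene start, and are written 5′ to 3′ on the gene's strand. The table held windows for 7 of the 9, without Ikzf2 and Icos. Capitals mark matches on either strand to the NF-kB consensus, to TGANTCA (AP-1), to GTAAACA (forkhead) or to TATAAA.
Tnfrsf4, chr4:156013445-156013744, plus strand: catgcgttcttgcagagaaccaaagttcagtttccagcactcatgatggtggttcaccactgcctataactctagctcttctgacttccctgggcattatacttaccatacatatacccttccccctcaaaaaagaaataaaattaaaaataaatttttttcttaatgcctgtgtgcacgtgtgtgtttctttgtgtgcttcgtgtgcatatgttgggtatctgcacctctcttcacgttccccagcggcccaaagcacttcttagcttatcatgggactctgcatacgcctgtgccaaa
Cd27, chr6:125236978-125237277, minus strand: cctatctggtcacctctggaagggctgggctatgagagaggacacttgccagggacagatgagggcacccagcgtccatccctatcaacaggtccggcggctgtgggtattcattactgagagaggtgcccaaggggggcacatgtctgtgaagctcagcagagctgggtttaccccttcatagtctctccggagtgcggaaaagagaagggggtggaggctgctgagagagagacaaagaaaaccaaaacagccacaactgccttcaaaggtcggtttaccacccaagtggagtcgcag
Tnfrsf9, chr4:150927749-150928048, plus strand: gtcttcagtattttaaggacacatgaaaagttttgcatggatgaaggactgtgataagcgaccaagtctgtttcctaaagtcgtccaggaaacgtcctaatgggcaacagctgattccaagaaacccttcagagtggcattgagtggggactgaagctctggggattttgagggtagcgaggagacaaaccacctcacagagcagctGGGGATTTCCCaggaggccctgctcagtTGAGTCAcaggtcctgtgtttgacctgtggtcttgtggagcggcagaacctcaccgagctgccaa
Foxp3, chrX:7579426-7579725, plus strand: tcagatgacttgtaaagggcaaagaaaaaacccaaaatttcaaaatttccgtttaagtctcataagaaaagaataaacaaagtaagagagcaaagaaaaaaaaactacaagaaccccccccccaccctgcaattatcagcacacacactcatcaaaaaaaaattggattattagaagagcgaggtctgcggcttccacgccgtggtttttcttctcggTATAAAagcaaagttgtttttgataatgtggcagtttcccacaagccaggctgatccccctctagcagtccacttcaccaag
The Tnfrsf4 and Cd27 windows held none of the 4 motifs. This Tnfrsf9 window, 1 of 2 for the gene, held 2 overlapping NF-kB matches and 1 TGANTCA match, and the Foxp3 window, also 1 of 2, held 1 TATAAA match. Among the windows not shown, that of Il2ra also held overlapping NF-kB matches and that of Ctla4 a TATAAA match. Of 32544 distinct windows in the table, 8.49% held the NF-kB consensus, 7.79% TGANTCA, 3.66% GTAAACA and 13.6% TATAAA. A match describes the letters of the window and not binding.

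Other Treg-associated genes were then examined, in lists chosen with earlier results of these data known. Of 22 genes 21 were listed and 14 passed the low-count filter. In the quasi-likelihood test of edgeR, Benjamini-Hochberg adjusted over all genes, 0 were called in either direction. DESeq2 also called 0, but it gave no adjusted p to Ccr8, Gata3 or Itgae and so could not call them. Before adjustment 2 were higher at p under 0.05 and 0 lower, where 3.98% of tested genes were higher and 3.28% lower. The median log2 fold change of all 21 was 0.21, against -0.01 for all listed genes, with 16 above 0, against 49.1% of all listed genes. Ccr8, a chemokine receptor of tumour Tregs, had 11.5, 11.2, 9.01 and 7.75 CPM in PBS replicates 1 to 4 and 30.6, 28.5, 26.6 and 36.7 CPM in DRQ replicates 1 to 4. Every DRQ library was above every PBS library, though each PBS library held at most 6 Ccr8 counts. Its log2 fold change of 1.60 ± 0.49 (SE) did not pass (edgeR quasi-likelihood, adjusted p = 0.308, and 0.305 to 0.672 over the alternatives). Gata3, a transcription factor of type 2 helper T cells and some Tregs, stood at 55.9 ± 10.2 CPM in the PBS libraries and 89.1 ± 11.7 CPM in DRQ (SD, n = 4). Its groups did not overlap, with a log2 fold change of 0.65 ± 0.27 (SE) that did not pass (edgeR quasi-likelihood, adjusted p = 0.587, and 0.510 to 0.811 over the alternatives). Itgae, the integrin CD103 of tissue T cells and some DCs, stood at 21.5 ± 10.5 and 38.7 ± 16.2 CPM (SD, n = 4).

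Ikzf4 (Eos), the Ikaros family partner of FOXP3, fell below the low-count filter and was singled out after its values were seen. It had 11.5, 2.81, 9.01 and 12.9 CPM in PBS replicates 1 to 4 and 42.8, 20.3, 26.6 and 48.3 CPM in DRQ replicates 1 to 4, so its groups did not overlap. Without the filter its log2 fold change was 1.87 ± 0.53 (SE), which did not pass (edgeR quasi-likelihood, adjusted p = 0.235 over all 10825 genes). Its relatives Ikzf3 and Ikzf1 had log2 fold changes of 0.45 ± 0.29 and -0.33 ± 0.28 (SE), and among the CD28 family Pdcd1 stood at -0.15 ± 0.41. Without PBS replicate 1 Ikzf3 stood at 0.69 and Pdcd1 at 0.20. Of the 7 genes in this list of relatives 6 were listed and 3 tested, with 0 called by edgeR and 0 at an unadjusted p under 0.05. DESeq2 gave no adjusted p to these 3, so it could not call them. In the list of other Treg-associated genes Tigit and Entpd1, at -0.30 ± 0.33 and -0.30 ± 0.35, lay on the other side of 0.

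Most ligands of these receptors were sparse. Of 8 ligand genes 6 were listed and 2 passed the low-count filter, with 0 called by edgeR and 0 at an unadjusted p under 0.05. DESeq2 gave no adjusted p to these 2, Tnfsf9 and Icosl, so it could not call them. Tnfsf9, the ligand of 4-1BB, averaged 42.8 ± 8.96 CPM in the PBS libraries and 60.2 ± 23.6 CPM in DRQ, and Icosl 20.5 ± 5.47 and 31.6 ± 4.20 CPM (SD, n = 4). Tnfsf4, the OX40 ligand, had 0 to 7 counts per library, Cd70 0 to 8, Cd80 1 to 11 and Cd86 0 to 13. All 6 listed ligands had log2 fold changes above 0, against 49.1% of all listed genes, with a median of 0.74 against -0.01. The 4 below the filter, however, had standard errors of 0.66 to 1.01.

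Partners of IL2RA were counted well even though Il2ra was not. Of 10 genes of interleukin-2 signalling 9 were listed and 8 tested, with 0 called and 0 at an unadjusted p under 0.05 in either direction by edgeR. DESeq2 also called 0, but it gave no adjusted p to Stat5b. The receptor chains shared with NK cells, Il2rb and Il2rg, had log2 fold changes of 0.04 ± 0.14 and 0.07 ± 0.13 (SE). Cish, a feedback inhibitor induced by STAT5, stood at 82.1 ± 31.9 CPM in the PBS libraries and 124 ± 40.2 CPM in DRQ (SD, n = 4), and the log2 fold changes of Jak3 and Stat5b were 0.45 ± 0.24 and 0.55 ± 0.32 (SE).

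Downstream of the TNF receptors, 19 of 19 genes were listed and 15 tested, with 0 called by edgeR over all genes. Before adjustment 3 of them were higher at p under 0.05 and 0 lower, where 3.98% of all tested genes were higher and 3.28% lower. Tnfaip3 (A20), which restrains NF-kB, stood at 187, 171, 213 and 191 CPM in PBS replicates 1 to 4 and 377, 281, 346 and 259 CPM in DRQ replicates 1 to 4. The groups did not overlap, and the log2 fold change of 0.73 ± 0.17 (SE) did not pass with edgeR (quasi-likelihood, adjusted p = 0.127) but did with DESeq2 (adjusted p = 0.0325). Over the alternatives its adjusted p from edgeR, limma or DESeq2 ran from 0.0325 to 0.419. Nfkbia, another NF-kB inhibitor, stood at 1232 ± 181 and 1609 ± 89.6 CPM, and Nfkb2 at 285 ± 88.3 and 398 ± 62.4 CPM (SD, n = 4), the first without overlap between groups and the second with it. The adaptor genes Traf1 and Traf2, which bind OX40 and 4-1BB, had log2 fold changes of 0.20 ± 0.15 and 0.21 ± 0.27 (SE).

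Of 24 other TNF-receptor superfamily genes 11 were listed and 6 tested, with 0 called and 0 at an unadjusted p under 0.05 by edgeR in either direction. DESeq2 also called 0, but it gave no adjusted p to Tnfrsf12a or Relt. Tnfrsf12a, the receptor of TWEAK, was lower in all 4 DRQ libraries than in all 4 PBS libraries, at 80.2 ± 5.58 against 107 ± 23.6 CPM (SD, n = 4), with a log2 fold change of -0.40 ± 0.25 (SE) that did not pass (edgeR quasi-likelihood, adjusted p = 0.773, and 0.740 to 0.922 over the alternatives). The TNF receptor genes Tnfrsf1a and Relt had log2 fold changes of 0.43 ± 0.26 and 0.42 ± 0.38 (SE). With 1 library left out, Tnfrsf1a came down to 0.26 (DRQ replicate 1), Relt ran from 0.11 (PBS replicate 1) to 0.82 (PBS replicate 2), and Tnfrsf12a stood at -0.25 without PBS replicate 3. The median over the 11 listed genes was 0.21, against -0.01 for all listed genes.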

How the data were processed

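Per the labels' protocols, 3′ ends of RNA from the 8 samples were sequenced as bulk MARS-seq, which tags molecules with UMIs (unique molecular identifiers). Without roles, the submitters' processing notes list STAR 2.7.3a, HTSeq, cutadapt, DESeq2 1.26.0, DESeq, bcl2fastq 2.20.0.422 and build GRCm39. The authors deposited a raw table of counts per gene, all whole numbers. Handling of UMIs and of strand was not given in the sources used here. Floors therefore cover counting error only. The authors also deposited normalized values, a signal equal to counts over a median-ratio size factor (all 86600 values within 0.005), used for an alternative only. Symbols matched 10788 of 10825 IDs.

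The test was the robust quasi-likelihood one of edgeR 4.0.16 (R 4.3.3), with TMM factors and Benjamini-Hochberg adjusted p under 0.05, after filterByExpr, which kept 6156 genes with 94.9% of counts. Fold changes of members come from the fit with no filter, so that all 9 enter. Those of other named genes come from the filtered fit where they passed. The scripts were first tested on simulated counts. All pairs of libraries differed by more than counting noise, with a chi-square of 2.60 to 4.21 per degree of freedom. Log2 CPM for co-variation used a prior count of 2. Alternatives were other scaling factors, DESeq2 1.42.0, limma-voom (limma 3.58.1), other filters, a replicate block, the normalized table and each library left out. The members, lists and tests were chosen with earlier results of these data known. The filterByExpr values of the members and the overlap under other scalings were added after seeing the data. From each list the text names the genes called or, with none called, up to 3 with the smallest p. All members are named, with the 3 genes most like each well-counted one, except those of Tnfrsf18, which are not reported here. Other genes named with values (Ikzf4, single cell type markers such as Krt8, Itgax, Cd4 and Cd8a, Tigit, Entpd1, Il2rb, Il2rg, Traf1, Traf2, the sparse ligands and overlapping genes) were chosen after their values were seen. Figures were drawn with matplotlib 3.10.9.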

Additional observations from a re-analysis of the deposited data

Results flagged for a closer look

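Among 110 groups of 4 libraries examined, 5 had a library standing far from its group, where chance gives about 5% of groups. Gata3 stood at 106 CPM in DRQ replicate 3, against 81.4 to 85.0 CPM in the other DRQ libraries. Itgae stood at 62.9 CPM in the same DRQ replicate 3, against 28.6 to 32.5 CPM in the others. The macrophage marker sum was 582 CPM in DRQ replicate 4, against 146 to 167 CPM in the other DRQ libraries. Cd4 stood at 97.4 CPM in PBS replicate 1, against 30.0 to 39.3 CPM in the other PBS libraries. Ccdc22 stood at 28.1 CPM in PBS replicate 2, against 17.2 to 18.1 CPM in the others.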

How the results depend on the processing

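The 2 genes called over the whole table became 7 with library totals in place of TMM factors, 17 with DESeq2, 6 with no filter, 5 with 5 CPM in 4 libraries, 6 with the replicate block and 1 with the normalized table, and ran from 0 to 15 with 1 library left out (0 without DRQ replicate 3, 15 without PBS replicate 4, 7 without DRQ replicate 4, 6 without PBS replicate 3). The cause was not tested. Every member's log2 fold change moved by less than the SD between replicates in each alternative run for it, and their median stood between 0.31 and 0.51. Of the context lists, TNF-receptor signalling went from 0 calls to 1, Tnfaip3, with DESeq2. Pdcd1, at -0.15, changed sign when PBS replicate 1 (0.20), DRQ replicate 3 (0.03) or DRQ replicate 4 (0.06) was left out, in a range from -0.45 to 0.20. Replicate numbers did not pair the libraries (correlation of deviations from -0.01 to 0.08 over 6156 genes), so the block is no paired test. For Il2ra, Icos and Ikzf2, with means of 7.25, 11.1 and 11.6 counts per library, depth limits every statement.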
